A study of Mus musculus with 8 samples.

Results

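MHC class II presentation was followed here through 10 genes, taken by symbol from the deposited gene table, which holds 18187 symbols. They are the class II chain genes H2-Aa, H2-Ab1 and H2-Eb1, the invariant chain gene Cd74, the peptide exchange genes H2-DMa, H2-DMb1 and H2-DMb2, the processing genes Ctss and Ifi30, and the transcriptional coactivator gene Ciita. All 10 had a row in the table, and 7 passed the filter on low counts; H2-DMb1, H2-DMb2 and Ciita did not. The libraries were made from neutrophils linked by their labels to tumors of B16, a mouse melanoma line. In one group of 3 libraries (replicates 1 to 3) the treatment label was aOX40, an antibody to the T cell costimulatory receptor OX40, and in the other group of 5 (replicates 2 to 6) it was IgG, the usual control antibody. Dose, schedule, strain, age, sex and the way the cells were isolated are not given in the labels used here, nor is it stated that each library came from its own animal. The p-values therefore rest on library to library spread alone, part of which may be technical.

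Class II molecules are pairs of an alpha and a beta chain that carry peptides from endosomes to the cell surface, where CD4 T cells read them. The invariant chain blocks the groove of a newly made pair until it is cut by proteases such as cathepsin S, and the DM pair then exchanges the remaining fragment for other peptides. CIITA does not bind DNA itself: it is recruited by the RFX, CREB and NF-Y factors that sit on the X and Y boxes of class II promoters, and it is known as the switch of this gene set. Dendritic cells, B cells and macrophages are the classical bearers of class II, whereas resting neutrophils are known for low levels.

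The X and Y boxes can be read in the promoters, and 3 windows are shown because they are the sites through which Ciita is known to act. Each runs 5′ to 3′ on the gene's strand from base -130 to base -21 before the RefSeq transcription start (GRCm38.p6, the build also called mm10). Capitals mark 3 searched motifs: the Y box core GATTGG or its reverse complement CCAATC, the X box letters AAC, any base, then GATGATG, and TGACGTCA, a CREB-type site at the X2 position. H2-Aa lies at chr17:34287844-34287953 on the minus strand, H2-Eb1 at chr17:34305737-34305846 on the plus strand, and H2-DMb2 at chr17:34145119-34145228 on the plus strand.
H2-Aa: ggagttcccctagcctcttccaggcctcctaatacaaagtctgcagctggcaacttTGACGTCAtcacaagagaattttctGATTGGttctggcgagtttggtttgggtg
H2-Eb1: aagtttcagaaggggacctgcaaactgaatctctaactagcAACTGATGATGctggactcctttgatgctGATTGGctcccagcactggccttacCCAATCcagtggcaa
H2-DMb2: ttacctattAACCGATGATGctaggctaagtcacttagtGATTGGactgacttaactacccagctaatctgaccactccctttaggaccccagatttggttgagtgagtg

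In all 3 windows an X type motif stood upstream of a Y box core on the same strand. Over 250 bases before the start, searched on both strands, 4 of the 7 genes with an entry in the RefSeq promoter table (H2-Aa, H2-Eb1, H2-DMb1 and H2-DMb2) held a Y box core together with an X type motif. Of all 32851 promoter entries, 14.6% held the Y box core, 0.0487% the X box letters, 1.55% the CREB-type letters and 0.292% a Y box core with either of the other motifs. The motif letters were set after these promoters had been read, and a match is a description of letters only. H2-Ab1, Cd74 and Ciita were without an entry. Of the sequences shown, H2-Aa and H2-Eb1 belong to genes with counts in all 8 libraries, and H2-DMb2 to a gene with counts in 1 library.

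The libraries differed in depth by group, which bears on the genes near 0. They held 69.6 to 73.5 M counts (M, mega) in aOX40 and 52.7 to 63.2 M in IgG. Levels are given as CPM, counts relative to a common library size, scaled between libraries with TMM factors. These factors were 1.07 to 1.27 in aOX40 and 0.874 to 0.984 in IgG, so they too differed by group. A count of 0 in 1 library still allows 3 counts, which is 0.0337 to 0.0404 CPM in aOX40 and 0.0489 to 0.0616 CPM in IgG, for counting error only. In bulk libraries, fewer cells of a type and less RNA per cell cannot be told apart.

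The 3 chain genes were expressed in every library, and their spread within IgG was wider than the gap between the groups. H2-Aa encodes the alpha chain of the I-A molecule, and its levels were 60.5, 59.2 and 84.8 CPM in aOX40 replicates 1 to 3. In IgG replicates 2 to 6 they were 17.6, 48.7, 22.9, 62.4 and 78.3 CPM. IgG replicates 2 and 4 were thus low, IgG replicates 5 and 6 stood within the aOX40 range, and the groups overlapped. H2-Ab1, which encodes the I-A beta chain, was at 76.7, 54.5 and 72.2 CPM in aOX40 and at 73.5, 71.4, 43.0, 71.1 and 101 CPM in IgG. Here IgG replicate 4 alone was low and replicate 2 lay with the others, although replicate 2 had the lowest H2-Aa of all 8 libraries. H2-Eb1, the beta chain gene of the I-E molecule, was at 81.5, 66.3 and 99.6 CPM in aOX40 and at 35.9, 67.3, 40.1, 98.6 and 118 CPM in IgG. As for H2-Aa, IgG replicates 2 and 4 were lowest and the groups overlapped.

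The spread of H2-Aa and H2-Eb1 was smaller between the 3 aOX40 libraries than between the 5 IgG libraries. The highest aOX40 library had 1.43 times the H2-Aa level of the lowest, against 4.45 times in IgG, and for H2-Eb1 these ratios were 1.5 and 3.29. For H2-Ab1 they were 1.41 and 2.34. A range over 5 libraries is wider than one over 3 on average, and the difference in spread was not tested.

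Cd74 encodes the invariant chain, which escorts class II chains and is also a surface receptor for the cytokine MIF. It was at 92.5, 105 and 80.3 CPM in aOX40 and at 66.8, 59.0, 63.0, 92.7 and 80.01 CPM in IgG. All 3 aOX40 libraries were above IgG replicates 2, 3, 4 and 6, but IgG replicate 5 reached the aOX40 range. Its levels ran over a narrower range in IgG than those of the chain genes, 1.57 times from lowest to highest.

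**Figure D1:**
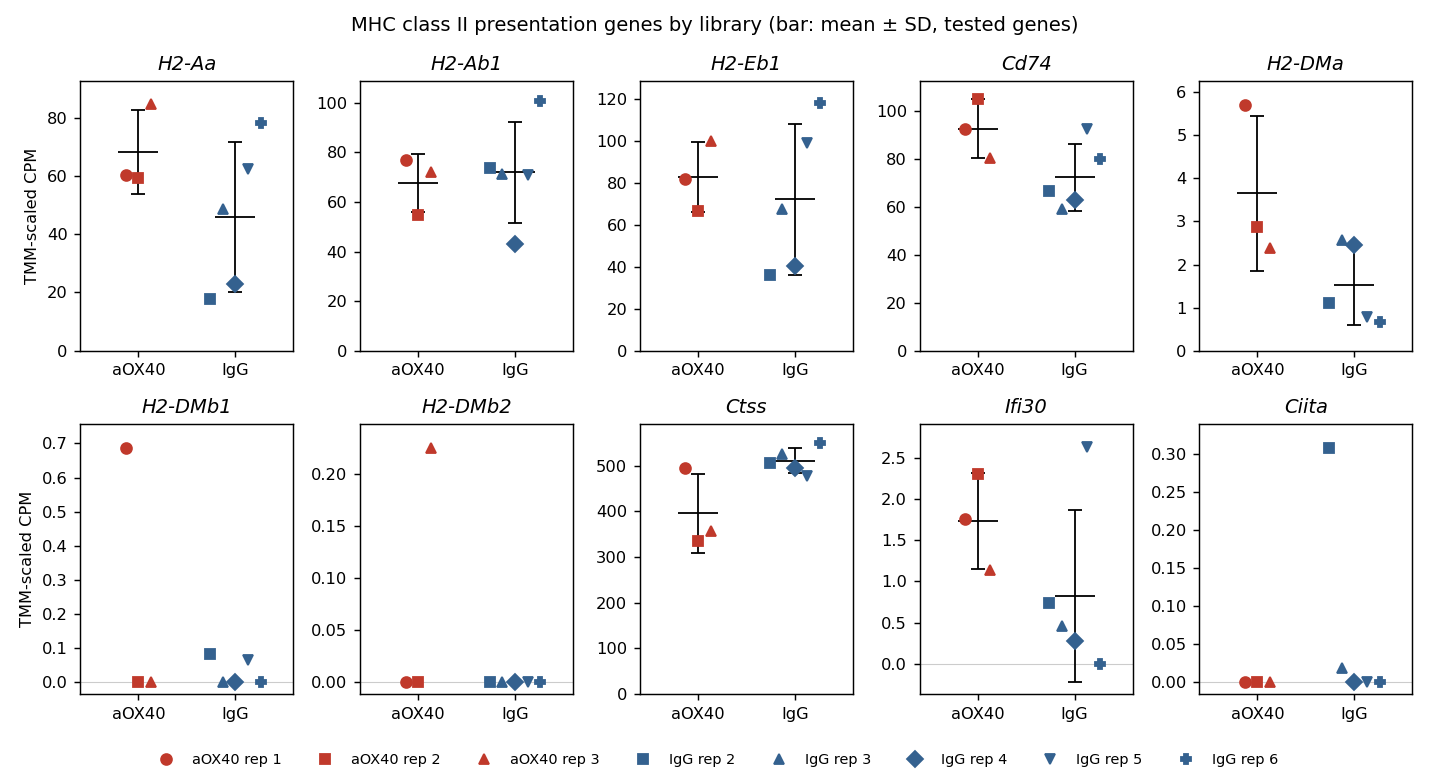
TMM-scaled CPM (y axis, linear, 1 scale per gene) of the 10 genes in the 3 aOX40 libraries (red) and the 5 IgG libraries (blue), 1 symbol per library, with the mean and SD as a bar for the 7 genes tested. For H2-Aa and H2-Eb1 the IgG replicates 2 and 4 sit at the bottom and replicates 5 and 6 at the top of that group, overlapping the aOX40 libraries, while Ctss stands at 477 to 550 CPM in IgG and at 335 and 357 CPM in aOX40 replicates 2 and 3.

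The exchange factor DM is a pair of an alpha chain from H2-DMa and a beta chain from H2-DMb1 or H2-DMb2, and its transcripts were scarce. H2-DMa was at 5.70, 2.86 and 2.38 CPM in aOX40 and at 1.11, 2.57, 2.46, 0.783 and 0.673 CPM in IgG. The top aOX40 libraries, replicates 1 and 2, lay above every IgG library, while aOX40 replicate 3 fell below IgG replicates 3 and 4. IgG replicates 5 and 6, the highest of that group in H2-Eb1, were its lowest in H2-DMa. The gene model of H2-DMa overlaps Brd2 on the other strand, and reads of the 2 genes may not be told apart. Deposited counts of H2-DMa carried fractions in each library, but so did those of Ctss, so fractions alone do not mark this overlap. Brd2, a chromatin reader gene, was at 55.8, 93.2 and 186 CPM in aOX40 and at 20.1 to 62.5 CPM in IgG. In aOX40 replicates 2 and 3 it was above every IgG library, while aOX40 replicate 1, the highest in H2-DMa, lay inside the IgG range. The aOX40 libraries thus stood in opposite order for the 2 genes. Within IgG, replicate 3 was the highest in both genes, and replicate 4 was the lowest in Brd2 with H2-DMa at 2.46 CPM. The part of Brd2 in the H2-DMa values was not tested.

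Both beta chain genes of DM were at or near 0. H2-DMb1 had 51 counts in aOX40 replicate 1, 4 counts in each of IgG replicates 2 and 5, and 0 in the other libraries. H2-DMb2 had 18 counts in aOX40 replicate 3 and 0 in every IgG library. The longest transcripts of these neighbouring genes are 95.7% identical over 1081 bases, so reads could be shared, and for H2-DMb2 the table lists 8.18e-33 in aOX40 replicate 1, the library with the 51 counts of H2-DMb1. Summed to 1 feature, they had 77 counts over the 8 libraries and at least 10 counts in 2 libraries, which again did not pass the filter.

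Of the processing genes, Ctss was the most abundant of all 10 and Ifi30 was low. Ctss encodes cathepsin S, the endosomal protease that trims the invariant chain. It was at 495, 335 and 357 CPM in aOX40 and at 506, 525, 495, 477 and 550 CPM in IgG. On this scale, aOX40 replicates 2 and 3 were below every IgG library, while aOX40 replicate 1 lay inside the IgG range. Ifi30 encodes GILT, a lysosomal thiol reductase that opens disulfide bonds of antigens. Its level was 1.76, 2.30 and 1.14 CPM in aOX40 and 0.739, 0.463, 0.279, 2.63 and 0 CPM in IgG. IgG replicate 5 was the highest of all 8 libraries and IgG replicate 6 had no count, so the groups overlapped from end to end.

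Ciita was close to undetected in both groups. The table lists 0 in all 3 aOX40 libraries, and a count of 0 over them together allows up to 0.0123 CPM. Among IgG libraries it lists 15 counts in replicate 2, 1 in replicate 3 and 0 in the others, so that 1 library held 15 of the 16 counts. That library had the lowest H2-Aa and H2-Eb1 levels in the series. IgG replicates 5 and 6, with H2-Eb1 at 98.6 and 118 CPM, had no Ciita count. Ciita shares its locus with Dexi on the other strand, and Dexi was at 0 to 2.74 CPM.

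Compared per kb of transcript, the genes fell into 3 tiers in both groups. Ctss stood alone at 292 ± 63.9 CPM per kb in aOX40 (SD, n = 3) and 377 ± 20.7 in IgG (SD, n = 5), and was above Cd74 in 8 of 8 libraries by 3.32 to 9.26 times. The second tier held Cd74 (65.6 ± 8.70 in aOX40 and 51.3 ± 9.84 CPM per kb in IgG), H2-Ab1 (56.0 ± 9.67 and 59.4 ± 16.9), H2-Aa (60.4 ± 12.8 and 40.8 ± 22.9) and H2-Eb1 (49.4 ± 9.99 and 43.1 ± 21.5). Neighbours within this tier did not differ beyond their spread, and their order changed with the length used. H2-DMa (1.82 ± 0.896 and 0.757 ± 0.460 CPM per kb) and Ifi30 (1.77 ± 0.594 and 0.837 ± 1.06) made up the third tier, far below the chain genes, and the remaining 3 genes did not exceed 0.489 CPM per kb in any library. A length here is that of the longest protein-coding transcript in GENCODE M21, or, for Ifi30, which that release lists as a processed transcript, of its longest transcript.

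**Figure D2:**
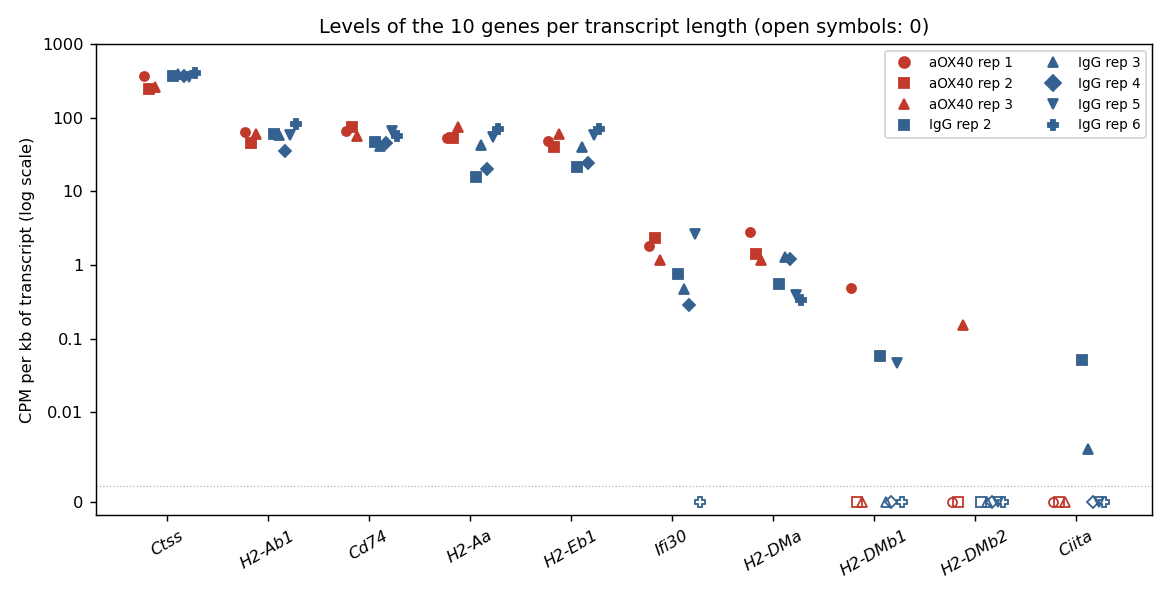
CPM per kb of transcript (y axis, log scale, with values of 0 drawn as open symbols on a line below the axis break) for the 10 genes ordered by mean level, aOX40 in red and IgG in blue, 1 symbol per library. Ctss stands highest, the 4 genes Cd74, H2-Ab1, H2-Aa and H2-Eb1 overlap, and H2-DMb1, H2-DMb2 and Ciita are at 0 in most libraries.

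The balance between chain genes also varied between libraries. Per kb, H2-Aa stood at 0.847, 1.17 and 1.26 times the level of its partner H2-Ab1 in aOX40. In IgG the ratio was 0.257, 0.734, 0.571, 0.944 and 0.835, so that aOX40 replicate 1 fell within the IgG range and the other two lay above it. H2-Eb1 stood at 0.911, 0.757 and 0.793 times H2-Aa in aOX40 and at 1.38, 0.932, 1.19, 1.07 and 1.02 times in IgG. These 2 sets of values did not overlap, but this was 1 of 7 ratios computed, singled out after its values were seen, and it was not tested. With exons of all isoforms merged as the length, each gene's ratio is multiplied by a constant, so the order of the libraries stays as given.

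The design asks whether these levels differed between aOX40 and IgG, and none of the 7 genes tested passed. In edgeR's quasi-likelihood test over 13278 genes, 0 of the 7 had an adjusted p below 0.05, against a background of 5.65% of all genes tested (2.64% higher and 3.00% lower in aOX40). At an unadjusted p below 0.05 there was 1 of the 7, H2-DMa, where the background was 24.8% (12.5% higher in aOX40). In 0 of the 7 were the groups free of overlap, against 16% of all genes tested (8.22% higher in aOX40). DESeq2 and limma voom also called 0 of the 7. Their median log2 fold change was 0.36, beside 0.05 for all genes tested, and 5 of the 7 were above 0, beside 52.2% of all genes.

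H2-DMa had a log2 fold change of 1.27 (SE 0.55, 95% interval 0.05 to 2.49, adjusted p = 0.185, edgeR), and without aOX40 replicate 1 it was 0.82. Ifi30 had 1.02 (SE 0.77, interval -0.64 to 2.68, adjusted p = 0.441, edgeR), a value that rose to 2.29 without IgG replicate 5, with an adjusted p of 0.0821 by edgeR. These intervals leave room for severalfold differences in the 2 scarce genes. The chain genes were held more tightly. H2-Aa was at 0.56 on the log2 scale (SE 0.42, interval -0.36 to 1.49, adjusted p = 0.441, edgeR), H2-Eb1 at 0.19 (interval -0.63 to 1.02) and H2-Ab1 at -0.09 (interval -0.67 to 0.50). H2-Ab1 turned to 0.20 when libraries were scaled by total counts alone, to 0.05 without aOX40 replicate 2 and to 0.066 without IgG replicate 6, so no direction can be read for it. Cd74 stood at 0.36 (SE 0.21, interval -0.11 to 0.82, adjusted p = 0.331, edgeR). Ctss stood at -0.37 (SE 0.19, interval -0.78 to 0.04, adjusted p = 0.252, edgeR). Scaled by total counts alone, Ctss was at -0.08 and Cd74 at 0.67 (adjusted p = 0.799 and 0.0956, edgeR). With TMM scaling the intervals of H2-Ab1, Cd74 and Ctss end within 1 log2 unit of 0 on either side, and those of Cd74 and Ctss are the narrowest of the 7. A p that misses the threshold does not show that the groups were alike.

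**Figure D3:**
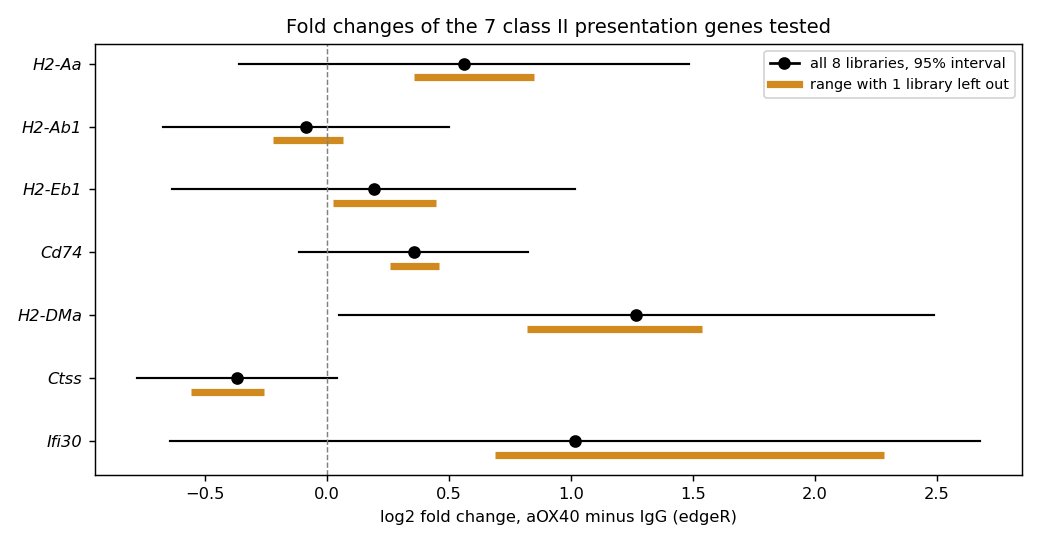
Log2 fold change of aOX40 against IgG (x axis) for the 7 genes tested, with the estimate from all 8 libraries as a point, its 95% interval as a black line and the range over the fits with 1 library left out as an orange bar. The intervals of 6 genes span 0; that of H2-DMa, from 0.05 to 2.49, starts just above it, and its adjusted p was 0.185.

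Of 16 regulators of class II transcription, 15 were tested, 1 was lower in aOX40 and 0 were higher, a count near the background of 5.65% (3.00% lower). The one that passed was Nfyb, a subunit of the NF-Y complex that binds the Y box, at 58.5, 70.8 and 53.6 CPM in aOX40 and 117 to 215 CPM in IgG (log2 fold change -1.26, SE 0.25, adjusted p = 0.0239, edgeR). It was below every IgG library in all 3 aOX40 libraries, but it was not called without aOX40 replicate 1, 2 or 3 (adjusted p 0.0609, 0.111 and 0.0962). Nfya, the DNA-contacting subunit of the same complex, was at 4.49 ± 1.15 against 9.95 ± 3.53 CPM and did not pass (-1.13, adjusted p = 0.101, edgeR). Irf1, an interferon-induced factor known to act on a Ciita promoter, was at 503, 564 and 915 CPM in aOX40 and 1009 to 2285 CPM in IgG, without overlap, and just missed the threshold (-1.19, SE 0.31, adjusted p = 0.0512, edgeR), which it passed in 4 alternative analyses, DESeq2 among them (adjusted p = 0.00579). Rfxank, the ankyrin repeat subunit of RFX, was at 3.75, 3.18 and 1.80 CPM in aOX40 and 0 to 1.77 CPM in IgG and did not pass (1.79, SE 0.64, adjusted p = 0.111, edgeR).

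The other RFX subunits, named here after their values were seen, were present at low levels. Rfx5 was at 7.73 ± 2.59 CPM in aOX40 and 3.97 ± 2.45 in IgG, and Rfxap at 15.4 ± 1.45 and 13.7 ± 2.35 CPM. The median log2 fold change of the 15 regulators was 0.13, beside 0.05 for all genes. With total-count scaling 1 was called higher as well as 1 lower.

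Among genes of class II loading, proteolysis and turnover, 15 of 16 were measured and tested, and 1 was lower, again near the background of 5.65% (3.00% lower). It was Lgmn, the asparagine endopeptidase that makes early cuts in the invariant chain, at 27.6, 18.9 and 26.9 CPM in aOX40 and 40.0 to 87.3 CPM in IgG (log2 fold change -1.26, SE 0.29, adjusted p = 0.0363, edgeR). The groups did not overlap. Lgmn was called in 9 of 18 alternative analyses, and leaving out any aOX40 library, or IgG replicate 4 or 5, ended the call (adjusted p 0.0532 to 0.187). Mif, the ligand of the Cd74 product, was at 181 ± 60.8 against 257 ± 67.7 CPM and did not pass (-0.51, adjusted p = 0.282, edgeR). Marchf1, a ubiquitin ligase that removes class II from the surface, was at 22.2 ± 11.9 against 9.89 ± 11.4 CPM and did not pass (1.17, adjusted p = 0.282, edgeR). IgG replicate 4 alone stood at 30.1 CPM and the other IgG libraries at 3.42 to 6.22 CPM, and without it Marchf1 was called higher in aOX40 (2.20, SE 0.43, adjusted p = 0.0292, edgeR). Ctsb, cathepsin B, was at 3821 ± 624 against 4636 ± 736 CPM and did not pass (-0.28, adjusted p = 0.419, edgeR). The median of these 15 was -0.05 and 6 of them were above 0, which became 12 with total-count scaling.

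A list of 7 genes for costimulation beside antigen had 1 member higher and 2 lower, where 2.64% and 3.00% of all genes tested were. Icosl, the ligand of the T cell receptor ICOS, was at 35.2, 53.8 and 34.8 CPM in aOX40 and 14.4 to 25.4 CPM in IgG, without overlap (log2 fold change 1.08, SE 0.27, adjusted p = 0.0416, edgeR). It was called in 8 of 18 alternative analyses and, with 1 library left out, only without IgG replicate 4. The checkpoint ligand genes Pdcd1lg2 and Cd274 were the 2 that fell (log2 fold change -1.55 and -1.32). Cd274 was at 1429, 1332 and 1604 CPM in aOX40 and at 2522 to 5307 CPM in IgG (SE 0.25, adjusted p = 0.0191, edgeR), and Pdcd1lg2 at 30.9 to 48.4 against 74.4 to 147 CPM (SE 0.28, adjusted p = 0.0168, edgeR). Leaving out aOX40 replicate 2 or 3 ended both calls (adjusted p 0.114 and 0.0793 for Pdcd1lg2, 0.115 and 0.0657 for Cd274). Cd80, the CD28 ligand, was at 89.7 ± 13.5 against 123 ± 25.6 CPM and did not pass.

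The labels name neutrophils, and neutrophil markers were high in every library, with 10 markers that summed to 15531 to 24139 CPM in aOX40 and 15727 to 27505 CPM in IgG. Of these 10, 1 passed the test, where 5.65% of all genes did (2.64% higher): Mmp8, a collagenase of neutrophil granules, at 704, 1713 and 860 CPM in aOX40 and 349 to 587 CPM in IgG (log2 fold change 1.19, SE 0.30, adjusted p = 0.0443, edgeR), which was called in 6 of 18 alternative analyses. Of the tested markers of dendritic cells (2), T cells (3) and melanoma (4), 0 passed. Markers of B cells and dendritic cells were low but not absent. Of 8 B cell markers 2 had a row (Cd79a and Cd22), and their sum was 0.0673 to 0.861 CPM in aOX40 and 0 to 0.425 CPM in IgG. Cd79a, the defining one of these, was at 0 in aOX40 replicate 3 and in IgG replicates 2 and 4. It was highest in aOX40 replicate 1, at 0.861 CPM. T cell markers summed to 17.1, 2.61 and 1.40 CPM in aOX40 replicates 1 to 3 and 1.21 to 3.70 CPM in IgG. Trbc2 made up 13.4 of the 17.1 CPM. The same library, aOX40 replicate 1, had the highest H2-DMa and the 51 counts of H2-DMb1, with a dendritic cell sum of 0.726 CPM. A link between these values was not tested. Of 11 dendritic cell markers 6 had a row, summing to 0.437 to 2.01 CPM in aOX40 and 0.186 to 6.11 CPM in IgG. Zbtb46 was at 0 to 0.550 CPM, Flt3 at 0 to 0.161 CPM and Xcr1 at 0.108 to 3.58 CPM. IgG replicate 6, the highest in dendritic cell markers and in Xcr1, was also the highest in the summed chain genes, and IgG replicate 4 was the lowest in both sums. Other libraries did not follow that order: aOX40 replicate 3 had a chain sum of 257 CPM with a dendritic cell sum of 0.437 CPM, and aOX40 replicate 2 had 180 CPM with 2.01 CPM.

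Of 12 macrophage and monocyte markers 11 had a row, and they summed to 499 to 764 CPM in aOX40 and 332 to 694 CPM in IgG. Most of that sum was Ly6c2, at 307 to 686 CPM. Adgre1, the F4/80 gene, was at 14.5, 26.8 and 23.6 CPM in aOX40 and at 2.13 to 8.55 CPM in IgG (log2 fold change 1.81, SE 0.37, adjusted p = 0.0248, edgeR), the only one of 8 tested that passed, where 5.65% of all genes did (2.64% higher). Of the 8, 7 had a log2 fold change above 0, with a median of 1.07, beside 52.2% and 0.05 for all genes. Without aOX40 replicate 2 the median was 0.17 and 5 of 9 tested were above 0. With any other 1 library left out the median was 0.80 to 1.52. Ms4a7, Ccr2, C1qa, C1qb and C1qc were near the floor, with means of at most 2.93 CPM in either group. The Adgre1 call was lost without aOX40 replicate 2 or 3 (adjusted p 0.132 and 0.0887, edgeR). It was also lost with edgeR's legacy method (0.0666) and with the replicate block (0.238), and it held in 14 of 18 alternative analyses. Csf1r, the M-CSF receptor gene, was at 38.0 to 75.6 CPM in aOX40 and 4.51 to 25.1 CPM in IgG (1.54, adjusted p = 0.0546, edgeR), and passed in 4 alternative analyses, DESeq2 among them (adjusted p = 0.0248). C1qa, a complement gene of tissue macrophages, did not exceed 1.11 CPM in any library. The summed level of H2-Aa, H2-Ab1 and H2-Eb1 was 219, 180 and 257 CPM in aOX40 and 127, 187, 106, 232 and 297 CPM in IgG. IgG replicate 6 had the highest chain sum and the lowest full macrophage and monocyte sum, 307 of its 332 CPM being Ly6c2. Without Ly6c2, a sum taken after the data were seen, these markers were at 57.7, 78.1 and 102 CPM in aOX40 and at 8.35, 27.1, 35.3, 38.3 and 24.7 CPM in IgG. Most of this reduced sum was Csf1r and Adgre1, each without overlap above, so its own lack of overlap between the groups adds nothing to theirs. It was lowest in IgG replicate 2, the library with the lowest H2-Aa and H2-Eb1. Other IgG libraries did not follow that order. Replicate 4, with the lowest chain sum (106 CPM), had 35.3 CPM, and replicate 6, with the highest (297 CPM), had 24.7 CPM. The part of other cells in the class II levels was not tested.

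**Figure D4:**
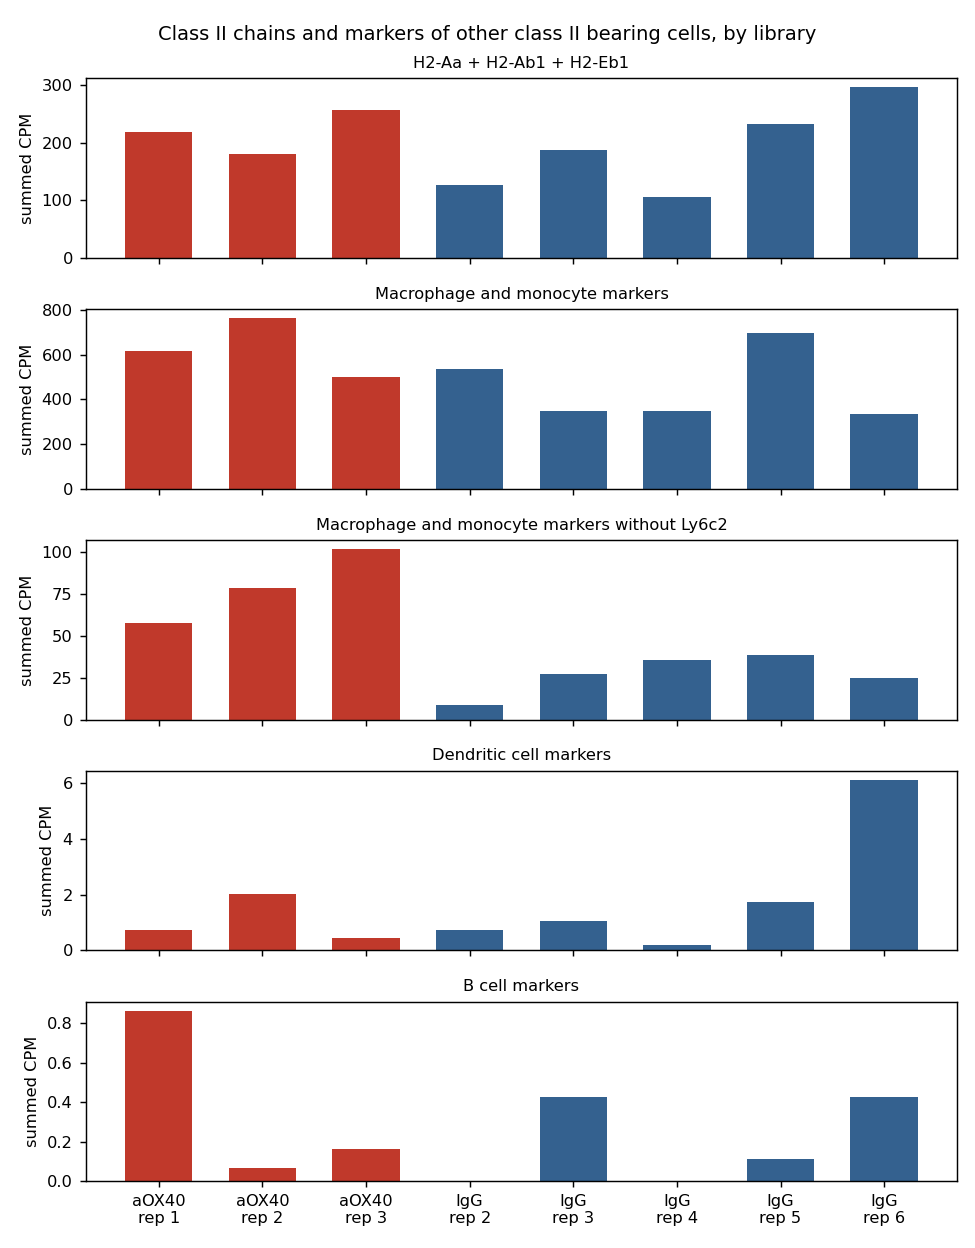
Summed TMM-scaled CPM (y axes, from 0) by library (x axis; aOX40 red, IgG blue) for the 3 chain genes, for the markers of macrophages and monocytes with and without Ly6c2, and for those of dendritic cells and B cells. The chain sum runs from 106 CPM in IgG replicate 4 to 297 CPM in IgG replicate 6, which also has the highest dendritic cell sum, 6.11 CPM. The macrophage and monocyte sum is lowest in IgG replicate 6 (332 CPM) with Ly6c2 and in IgG replicate 2 (8.35 CPM) without it.

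Some genes followed the chain genes from library to library. Likeness was the Pearson correlation, over 8 libraries, of log2 CPM with the mean log2 CPM of H2-Aa, H2-Ab1 and H2-Eb1, among 6472 genes with a mean of at least 5 CPM. The 5 most alike were Traf1, an adaptor of TNF receptors (r = 0.991, Spearman's rho = 0.976), Trmt112, a methyltransferase cofactor (r = 0.960, rho = 0.929), the cytokine gene Tgfb1 (r = 0.957, rho = 0.905), the histone gene H2az1 (r = 0.950, rho = 0.881) and Trmt112-ps2 (r = 0.950, rho = 0.881), a pseudogene of Trmt112 that may share its reads. No p is given, since the genes were picked for their r, and 24 of the 6472 had an r above 0.9. Traf1 was at 235, 153 and 260 CPM in aOX40 and at 77.1, 188, 66.2, 221 and 299 CPM in IgG. Like H2-Eb1, it was lowest in IgG replicates 2 and 4 and highest in IgG replicate 6. Without those 2 low libraries, the farthest from the median, r was 0.954 for Traf1, 0.850 for Trmt112, 0.801 for Tgfb1 and 0.696 for H2az1.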

How the data were processed

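The authors deposited estimated counts per gene symbol, unscaled. STAR 2.6.0, Subread, featureCounts 1.5.1 and the mm10 build are credited to the submitters' processing notes. Settings, strand and annotation: not given in the sources used here. Within 0.01, 63.4% of the authors' values were whole. Columns were matched to libraries by the sample name in the labels. Counts were rounded, filtered with filterByExpr by group and scaled with TMM; groups were compared with edgeR 4.0.16 (quasi-likelihood F test, legacy=FALSE, group as the only term; R 4.3.3) and Benjamini-Hochberg adjustment over 13278 genes, with a threshold of 0.05. The legacy setting was chosen after the counts of calls under both were seen. Under legacy=TRUE, Adgre1, Lgmn, Icosl and Mmp8 were not called (adjusted p 0.0611 to 0.0834, edgeR). Nfyb, Cd274 and Pdcd1lg2 still were (0.0320 to 0.0385). Standard errors came from the F statistic. Alternatives used DESeq2 1.42.0, limma 3.58.1, other scalings and filters, a replicate block and each library left out. Positions, overlaps and lengths came from GENCODE M21 (GRCm38), and promoters from RefSeq. The procedure was tested on simulated data, with changes set only in genes more abundant than H2-DMa and Ifi30. That test does not show what could be found for genes as scarce as these.

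The members and lists were chosen with earlier results of these data known. The naming rule took all 10 members, up to 4 genes with the smallest adjusted p per other list, defining markers, and the 5 genes most like the chain genes; T cell and melanoma markers were also summed (1.40 to 17.1 and 0.718 to 4.43 CPM in aOX40, 1.21 to 3.70 and 1.89 to 9.93 CPM in IgG).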

Additional observations from a re-analysis of the deposited data

Results flagged for a closer look

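Ciita in IgG replicate 2, at 0.308 CPM, lay far from the other 4 IgG libraries: its gap to the nearest of them was 0.937 of the whole range of the group. Ifi30 in IgG replicate 5, at 2.63 CPM, lay apart in the same way, with a gap of 0.719 of the range. Such gaps arise by chance in about 1 of 20 groups of 5, and 10 genes were looked at.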

How the results depend on the processing

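In each of the 18 alternative analyses 0 of the members tested were called. All 10 were tested only with no filter, 6 with at least 10 counts in every library, and 7 in the rest. H2-Aa, H2-Eb1, H2-DMa and Cd74 stayed above 0 in all 18, Ifi30 in the 17 that tested it, and Ctss stayed below 0 in all 18 (log2 fold change -0.58 to -0.08, the latter with total counts only). Their sizes moved: H2-Aa 0.36 to 1.25, H2-Eb1 0.02 to 0.72, H2-DMa 0.53 to 1.56, Cd74 0.26 to 0.67 and Ifi30 0.69 to 2.49. The replicate block gave 1.25 for H2-Aa, 0.72 for H2-Eb1 and 0.53 for H2-DMa. H2-Ab1 (-0.09; -0.22 to 0.066 with 1 library left out) reversed, to 0.20 with total counts only, 0.05 without aOX40 replicate 2 and 0.066 without IgG replicate 6. Of all genes, 750 were called, but 452 with no filter, 1629 with DESeq2's Wald test, 320 with edgeR's legacy method (added after the data were seen) and 0 to 589 with 1 library left out, namely 0 without aOX40 replicate 2, 59 without aOX40 replicate 3, 497 without IgG replicate 3 and 475 without IgG replicate 6. Total counts only gave 874 higher and 246 lower genes against 351 and 399, and moved the all-gene median log2 fold change from 0.05 to 0.35. The fits without a library all had fewer samples, and without aOX40 replicate 1 the count was 508. The cause of these changes was not tested. With the replicate block 0 genes were called (2594 at an unadjusted p below 0.05). Only numbers 2 and 3 occur in both groups, and the deviations of same-numbered libraries correlated at 0.02 and 0.05. With exons of all isoforms as the length, H2-Ab1 was above H2-Aa per kb in 8 of 8 libraries, against 6 of 8. Depth limits what can be said of H2-DMb1, H2-DMb2 and Ciita.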

Other observations

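The alpha chain partner of H2-Eb1 and the DO pair that restrains DM, named after their values were seen, were scarce. H2-Ea had 24 counts in all, 23 of them in aOX40 replicate 3 and 1 in IgG replicate 3. Mice of the H2-b haplotype are known to lack this chain, and the strain is not given in the labels. Mean levels of H2-Oa were 1.19 ± 0.719 CPM for aOX40 (SD, n = 3) and 0.835 ± 0.859 CPM for IgG (SD, n = 5). For H2-Ob they were 0.395 ± 0.621 and 0.846 ± 1.03 CPM. Neither H2-Oa nor H2-Ob passed in edgeR (adjusted p = 0.759 and 0.654).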
